A study of Mus musculus with 7 samples.

Results

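NF-κB is a family of transcription factors that switch on genes of inflammation, survival and lymphocyte activation. Its 5 subunits, encoded by Rela, Relb, Rel, Nfkb1 and Nfkb2, and 5 of its inhibitors, encoded by Nfkbia, Nfkbib, Nfkbie, Bcl3 and Tnfaip3, were followed in T-cells of ORP4L KI and wild-type (WT) mice. The genes were chosen by symbol, with earlier results of these data known, and all 10 were found among the 25033 genes listed in each library. All 10 passed the filter for low counts.

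The subunits form dimers. In a resting cell the dimers are held in the cytoplasm by IκB proteins. A signal from a T-cell receptor, a cytokine receptor or a Toll-like receptor activates the IKK kinases, the IκB proteins are degraded, and the freed dimers enter the nucleus. NF-κB also switches on the genes of several of its own inhibitors, among them Nfkbia and Tnfaip3, which closes a feedback loop, so transcripts of such genes are often read as a sign of pathway activity.

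Messenger RNA was sequenced from the T-cells of 3 WT and 4 ORP4L KI mice, 1 library per mouse. ORP4L KI mice carry the coding sequence of human ORP4L in the Rosa26 locus behind a CAG promoter and a loxP-flanked stop cassette, with a 3xFlag tag and an IRES-EGFP reporter. A Cre recombinase under the T-cell promoter of Lck removes the stop. WT littermates served as controls, both groups were C57BL/6J mice labelled with an age of 15 months, and the KI mice were taken when moribund. The methods describe T-cells from blood or from spleen, selected with a kit for naive CD4+ T-cells and then kept in medium with interleukin-2 and the mitogen PHA. They do not say which source each library had, or whether RNA was taken before or after that culture. The study reported elevated NF-κB activation in ORP4L KI T-cells, assayed at the level of the phosphorylated p65 protein. Transcript counts do not measure phosphorylation or nuclear entry.

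The total count ranged from 12918187 to 15912921 in WT and from 16757959 to 19665679 in ORP4L KI libraries. Osbp2 is the mouse gene that corresponds to ORP4L, a sterol-binding lipid transfer protein. It had 0, 0 and 1 counts in WT and 188, 742, 155 and 443 in ORP4L KI libraries. The deposited counts per gene do not separate reads of the human sequence from those of the mouse gene. T-cell transcripts were present in every library. Cd3e, a chain of the T-cell receptor complex, stood at 115 to 245 CPM, read counts scaled to a common library size. Cd4 stood at 93.4 to 415 CPM and Cd8a, a marker of CD8+ T-cells, at 79.6 to 226 CPM. None of 11 T-cell markers passed an unadjusted p under 0.05. Transcripts of other cells were present too. Granulocyte markers took 0.186% to 0.530% of the counts in WT and 1.12% to 12.2% in ORP4L KI libraries, with 14 of 14 markers higher at an unadjusted p under 0.05. Dendritic cell markers, at 0.0568% to 0.0774% in WT and 0.0123% to 0.0271% in ORP4L KI, were lower for 8 of 8. At the same threshold erythroid markers (1.081% to 1.85% in WT, 0.115% to 0.846% in ORP4L KI) were lower for 5 of 8, endothelial markers for 5 of 5 tested, NK-cell markers for 5 of 8 with 1 higher, and monocyte and macrophage markers for 4 of 10 with 1 higher. The 10 B-cell markers were all negative in log2 fold change, but none passed. ORP4L KI replicate 1 stood apart, with the 12.2% of granulocyte transcripts, the lowest share of T-cell markers (0.119%, against 0.229% to 0.424% in the others) and 14.3% of its counts in 10 genes, against 5.23% to 7.96% elsewhere. Xist, which is transcribed from the inactive X chromosome, had 6000 to 11877 counts in WT replicate 1 and ORP4L KI replicates 1 and 2 and 250 to 384 in the other 4 libraries. The labels do not give the sex of the mice, and the part of sex in the results was not tested.

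Promoters that NF-κB dimers bind carry κB sites, and the promoters of these genes were searched for the letters of such a site. RefSeq promoters on GRCm38.p6, each holding 250 bases before and 50 bases after a start site, were at hand for 8 of the 10 genes, all but Relb and Nfkb1. A match to the κB consensus, searched on both strands, was found for 6 of these 8 genes (75%). The same search matched 1388 of the 27025 genes with a promoter entry, or 5.14%. No match was found for Rela or Nfkbib, which says only that these letters are not in those windows. The stretches below are given on the strand of each gene with the matched bases in capitals and are shown because the feedback loop runs through sites of this kind. A match is a description of the letters, and binding was not tested.
Nfkbia, chr12:55492648-55492707, minus strand: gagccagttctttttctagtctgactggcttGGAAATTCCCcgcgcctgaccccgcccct
Tnfaip3, chr10:19015411-19015470, minus strand: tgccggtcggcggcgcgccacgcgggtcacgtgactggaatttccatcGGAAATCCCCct
Nfkbie, chr17:45555569-45555628, plus strand: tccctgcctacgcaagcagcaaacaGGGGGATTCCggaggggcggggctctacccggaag
Bcl3, chr7:19822734-19822763, minus strand: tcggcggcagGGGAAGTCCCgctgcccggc
Rel, chr11:23771027-23771086, minus strand: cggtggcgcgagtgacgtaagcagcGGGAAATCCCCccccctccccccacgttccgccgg
Nfkb2, chr19:46304677-46304736, plus strand: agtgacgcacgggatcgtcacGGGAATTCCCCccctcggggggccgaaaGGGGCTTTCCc
In Nfkbia the match lay at positions -29 to -20 relative to the start site, counted as 0, and in Tnfaip3 at -12 to -3. Tnfaip3 held a further match at -125 to -116, and Nfkb2 held further matches by its other start sites, at -236 to -227 and at 10 to 19. In Rel and Nfkb2 the run of 11 capitals holds 2 overlapping matches. Bcl3 was the member whose stretch crossed the start site, with the match at positions 2 to 11.

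No subunit gene differed between ORP4L KI and WT T-cells beyond the spread between mice. Counts were scaled by TMM and tested with edgeR's quasi-likelihood test over 13462 genes, and each fold change below is ORP4L KI against WT. Rela (chromosome 19, 5637442 to 5648134) encodes p65, the subunit with a strong activation domain in the dimer of the canonical pathway. It stood at 184, 215 and 180 CPM in WT replicates 1 to 3 and at 160, 215, 243 and 257 CPM in ORP4L KI replicates 1 to 4. ORP4L KI replicate 1 was the lowest of all libraries and replicates 3 and 4 the highest, so the groups overlapped. The log2 fold change was 0.18 (SE 0.21, n = 4 and 3 mice, 95% interval -0.29 to 0.65, edgeR adjusted p = 0.794). In these bulk libraries fewer cells of a type and less RNA per cell cannot be told apart.

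Rel (chromosome 11, 23736847 to 23770969) encodes c-Rel, the subunit most tied to lymphocytes. Its level was 308, 449 and 619 CPM in WT and 238, 428, 359 and 263 CPM in ORP4L KI libraries. WT replicate 3 was the highest of the 7, and ORP4L KI replicates 1 and 4 were below all WT libraries. The log2 fold change was -0.51 (SE 0.29, 95% interval -1.17 to 0.14, edgeR adjusted p = 0.496). Without WT replicate 3 it was -0.23, and without WT replicate 1 it was -0.73 (unadjusted p = 0.0401, edgeR adjusted p = 0.431). Relb (chromosome 7, 19606217 to 19629438), the partner of p52 in the noncanonical pathway, had 143, 186 and 109 CPM in WT and 51.1, 106, 103 and 144 CPM in ORP4L KI libraries. Of the ORP4L KI libraries 3 were below all WT libraries and replicate 4 was within the WT range. Its log2 fold change of -0.54 (SE 0.32, 95% interval -1.27 to 0.19, edgeR adjusted p = 0.530) was the furthest from 0 among the 10 genes.

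The genes of the 2 precursor proteins had log2 fold changes nearer to 0 than Rel and Relb. Nfkb1 (chromosome 3, 135584655 to 135691969) encodes p105, the precursor of p50. It had 291, 317 and 293 CPM in WT and 170, 314, 257 and 302 CPM in ORP4L KI libraries, a log2 fold change of -0.20 (SE 0.23, edgeR adjusted p = 0.791). The WT libraries lay close together (SD 14.7 CPM) and the spread was in the ORP4L KI group (SD 65.5 CPM). Nfkb2 (chromosome 19, 46300994 to 46312400) encodes p100, the precursor of p52, and had 178, 210 and 163 CPM in WT and 111, 174, 162 and 218 CPM in ORP4L KI libraries. Its log2 fold change was -0.14 (SE 0.24, edgeR adjusted p = 0.866), and both the lowest and the highest library were ORP4L KI.

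**Figure D1:**
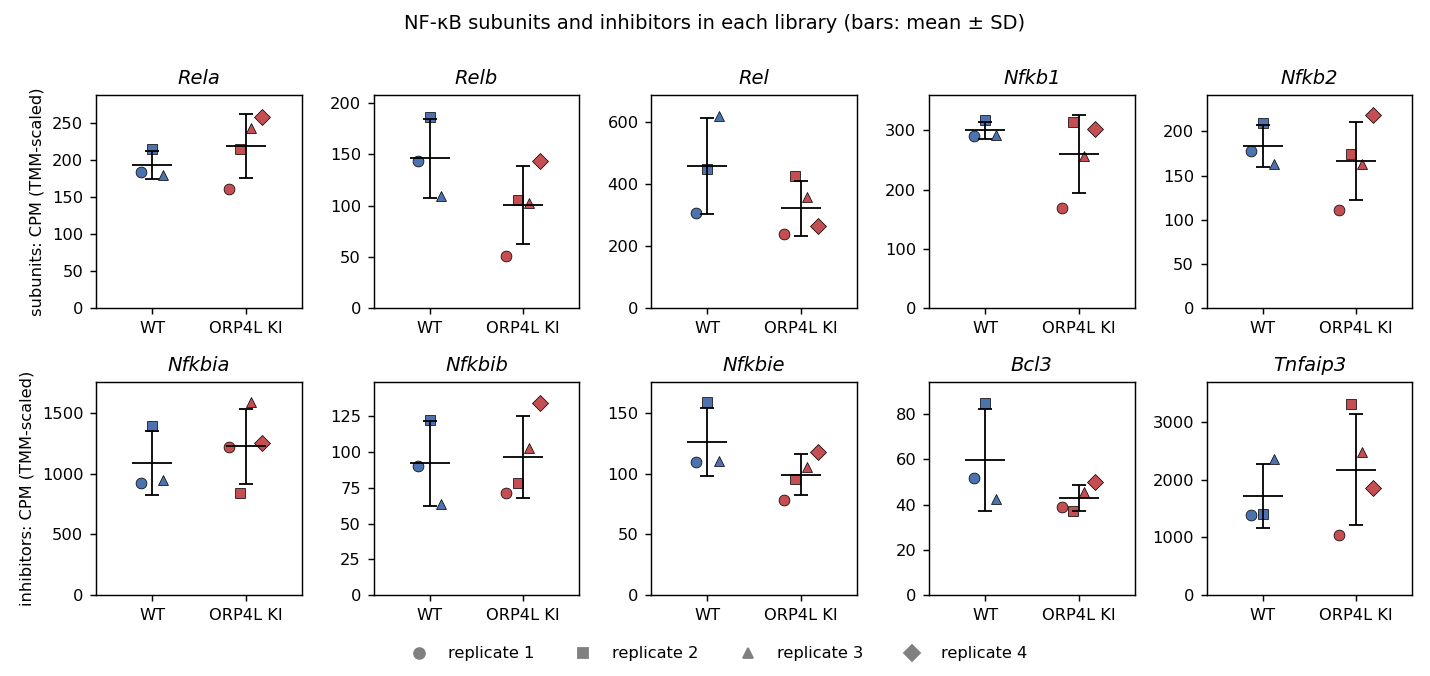
CPM after TMM scaling (y axis, from 0) of the 5 subunit genes (top) and 5 inhibitor genes (bottom) in each of 3 WT and 4 ORP4L KI libraries, with the group mean ± SD as bars and the replicate number as the symbol. The groups overlap for all 10 genes, and ORP4L KI replicate 1 (circle) is the lowest point in every panel of the top row.

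The inhibitor genes did not differ beyond the spread between mice either. Nfkbia (chromosome 12, 55489409 to 55492647) encodes IκBα, the inhibitor that is degraded and made again within a round of activation. It had 920, 1390 and 950 CPM in WT and 1221, 837, 1589 and 1249 CPM in ORP4L KI libraries. ORP4L KI libraries were at both ends of the range, and WT replicate 2 was above 3 of the 4 ORP4L KI libraries. The log2 fold change was 0.17 (SE 0.28, 95% interval -0.46 to 0.80, edgeR adjusted p = 0.860).

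Tnfaip3 (chromosome 10, 19000910 to 19015410) encodes A20, a ubiquitin-editing enzyme that shuts off signalling upstream of IKK. Its level was 1394, 1405 and 2364 CPM in WT and 1039, 3316, 2479 and 1856 CPM in ORP4L KI libraries. The ORP4L KI libraries spread widely, from replicate 1 to replicate 2, and enclosed the WT range. The log2 fold change was 0.34, with the widest error of the 10 genes (SE 0.40, 95% interval -0.56 to 1.24, edgeR adjusted p = 0.801). Without ORP4L KI replicate 2 it was 0.04.

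Nfkbib (chromosome 7, 28758251 to 28766644) and Nfkbie (chromosome 17, 45555700 to 45563169) encode the other classical inhibitors, IκBβ and IκBε. Nfkbib had 89.9, 123 and 63.8 CPM in WT and 71.2, 78.6, 103 and 135 CPM in ORP4L KI libraries (log2 fold change 0.07, SE 0.29, edgeR adjusted p = 0.950). Nfkbie had 110, 159 and 110 CPM in WT and 78.2, 95.3, 106 and 118 CPM in ORP4L KI libraries (log2 fold change -0.35, SE 0.21, edgeR adjusted p = 0.542). For Nfkbib the groups were interleaved, and for Nfkbie ORP4L KI replicates 1, 2 and 3 were below all WT libraries while replicate 4 was not.

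Bcl3 (chromosome 7, 19808462 to 19822824) encodes a nuclear IκB protein that binds p50 and p52 dimers and can repress or assist them. It had 51.6, 85.0 and 42.5 CPM in WT and 38.7, 37.3, 45.5 and 49.95 CPM in ORP4L KI libraries. WT replicate 2 was the highest, and the other 2 WT libraries lay within or just above the ORP4L KI range. The log2 fold change was -0.48 (SE 0.25, 95% interval -1.05 to 0.09) with an unadjusted p of 0.0909, the smallest of the 10 genes, and an edgeR adjusted p of 0.456. Without WT replicate 2 the log2 fold change of Bcl3 was -0.13. Among the genes whose pattern over the 7 libraries was most like that of Bcl3 were Tubb6 and Lsp1, with a root mean square difference in mean-centred log2 CPM of 0.098 and 0.129.

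Of the 10 genes, 0 had an adjusted p under 0.05 by edgeR's quasi-likelihood test, where 0.208% of all genes tested did. DESeq2's Wald test and edgeR's exact test, which called 5.83% and 5.07% of all genes, also gave 0 of 10. None passed an unadjusted p under 0.01 with a log2 fold change over 1 in size, the lines of the study's volcano plot, which 4.91% of all genes passed. At an unadjusted p under 0.05 the count was again 0, where 14.1% of all genes passed, 7.01% higher and 7.05% lower. None had groups that did not overlap, against 13.8% of all genes. By the exact two-sided permutation test over the 35 ways to choose 4 of 7 libraries, p was between 0.171 and 0.857, where 0.0286 is the smallest p that 4 against 3 mice allow.

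The log2 fold change was positive for 4 genes and negative for 6, with a median of -0.17, beside 0.01 over all genes. Among the subunits 1 was positive and 4 were negative (median -0.20), and among the inhibitors 3 were positive and 2 negative (median 0.07). A p that misses the threshold does not show that the groups were alike, and the intervals give the size of difference these libraries can hold. For 6 genes (Rela, Nfkb1, Nfkb2, Nfkbia, Nfkbib and Nfkbie) the 95% interval stayed within 1 log2 unit of 0. For Relb, Rel and Bcl3 it reached below -1, and for Tnfaip3 above 1. The SE of the 10 genes was 0.21 to 0.40, beside a median of 0.29 over all genes.

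**Figure D2:**
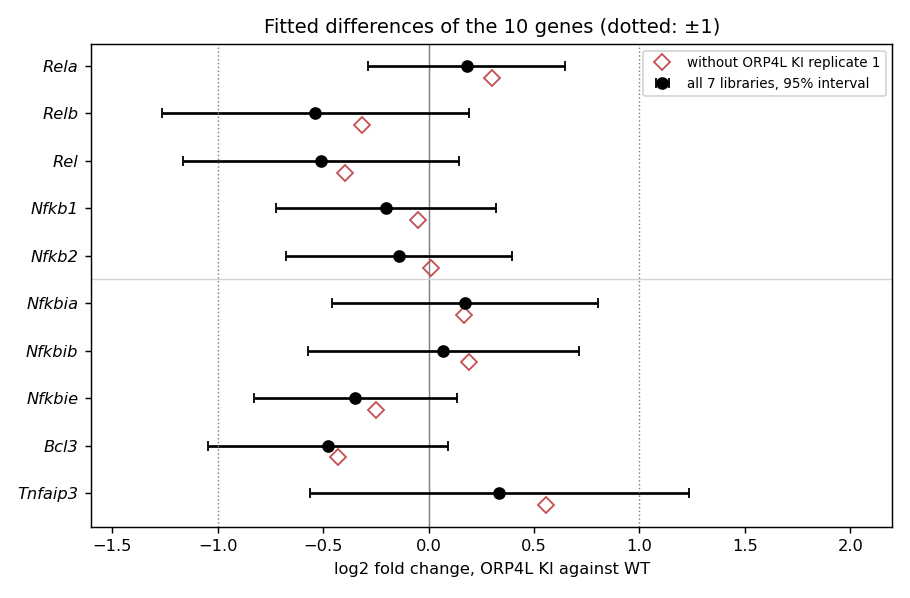
Log2 fold change of ORP4L KI against WT (x axis) for the 10 genes with all 7 libraries (black, bars are 95% intervals) and without ORP4L KI replicate 1 (open red diamonds, no interval drawn); dotted lines mark -1 and 1. Every black interval crosses 0, and the subunit genes above the grey line move to the right when that library is left out.

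ORP4L KI replicate 1 was the lowest of the 7 libraries for 7 of the 10 genes, that is for 5 of 5 subunits and for Nfkbie and Tnfaip3. It was the lowest library for 28.1% of all genes. This is the library with the largest share of granulocyte transcripts, and the part of those transcripts in the result was not tested. Without it the log2 fold change was -0.05 for Nfkb1, 0.01 for Nfkb2, -0.32 for Relb and -0.40 for Rel. Rela then stood at 0.30 (SE 0.17, edgeR adjusted p = 0.486) with each of the 3 remaining ORP4L KI libraries above each WT library once the libraries had been scaled again. On the CPM given above, ORP4L KI replicate 2 (214.6) was just below WT replicate 2 (215.1). Groups that did not overlap were found for 19.2% of 13338 genes in that comparison. Tnfaip3 was at 0.56 without it (edgeR adjusted p = 0.501) and Nfkbia at 0.17, and the adjusted p of each of the 10 genes stayed above 0.05 without this library.

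Levels can be set side by side between genes only per length of transcript, for which the RPKM deposited by the authors was used. Nfkbia, at 724 ± 135 RPKM (SD, n = 3) in WT and 738 ± 187 (n = 4) in ORP4L KI T-cells, and Tnfaip3, at 424 ± 153 and 499 ± 269, were above 100 RPKM in every library. The other 8 genes were below 100 in every library. In WT the order went on with Nfkb1 (77.1 RPKM), Rela (76.6), Nfkbib (70.7), Relb (70.0), Rel (65.3), Nfkb2 (60.4), Nfkbie (54.5) and Bcl3 (34.0). The neighbours from Nfkb1 to Nfkbie overlapped in their ranges, and of these pairs only Nfkb2 and Nfkbie stood in the same order in all 3 libraries. In ORP4L KI the order was Nfkbia, Tnfaip3, Rela (79.4 RPKM), Nfkbib (67.8), Nfkb1 (61.7), Nfkb2 (50.3), Relb (44.6), Rel (42.3), Nfkbie (39.2) and Bcl3 (22.4). There the ranges of neighbours separated between Tnfaip3 and Rela and between Nfkbie and Bcl3, and all others overlapped. Bcl3 was the lowest of the 10 genes in every library.

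The summed RPKM of the 5 inhibitors over that of the 5 subunits does not depend on the scaling between libraries. This ratio was 3.46, 3.82 and 3.92 in WT and 5.85, 4.45, 5.76 and 4.11 in ORP4L KI libraries. All ORP4L KI libraries were above all WT libraries, with means of 3.73 ± 0.242 (SD, n = 3) and 5.04 ± 0.890 (n = 4), a log2 difference of 0.42. It is given as a description without a test, and 13.8% of single genes had groups that did not overlap. Granulocyte markers took 0.186% to 0.530% of the counts in WT libraries and 12.2%, 1.12%, 3.06% and 4.91% in ORP4L KI replicates 1 to 4. Their part in the ratio was not tested. Nfkbia and Tnfaip3 made up 85.7% to 91.7% of the inhibitor sum in each library. The separation depended on which genes were summed, since the groups overlapped when Rel, Nfkbia or Tnfaip3 was left out of the sums (log2 differences 0.36, 0.38 and 0.35) and when each gene had equal weight (0.21). The subunit sum was 326, 367 and 355 RPKM in WT and 159, 345, 298 and 312 in ORP4L KI libraries, the lowest in replicate 1. The inhibitor sum was 1128, 1403 and 1390 RPKM in WT and 932, 1536, 1713 and 1281 in ORP4L KI libraries. On this scale the WT libraries lay inside the ORP4L KI range. Unlike the ratio, both sums depend on the scaling between libraries, and the RPKM carried no TMM scaling. The TMM factor was 0.836 in ORP4L KI replicate 1 and 0.921 to 1.10 in the other libraries. The order of these sums between libraries can change with it. Without ORP4L KI replicate 1 the log2 difference of the ratio was 0.34 and the groups still did not overlap. Nfkbia over Rela alone, the inhibitor over its main target subunit, was 8.44, 10.9 and 8.91 in WT and 12.9, 6.57, 11.03 and 8.18 in ORP4L KI libraries, and the groups overlapped.

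**Figure D3:**
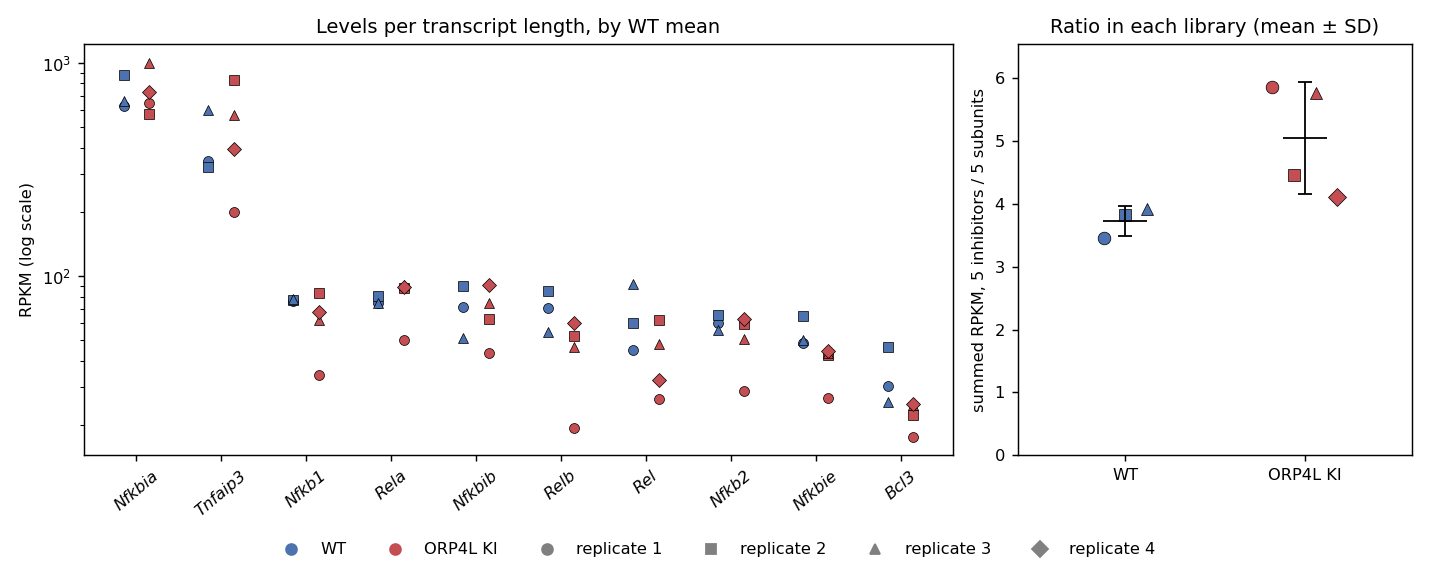
Left, RPKM of the 10 genes in each library (y axis, log scale), ordered by their WT mean, with WT in blue, ORP4L KI in red and the replicate number as the symbol. Nfkbia and Tnfaip3 lie above 100 in all 7 libraries and the other genes below it. Right, the ratio of summed inhibitor to summed subunit RPKM in each library with mean ± SD, where the 4 ORP4L KI values of 4.11 to 5.85 are above the 3 WT values of 3.46 to 3.92.

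The rest of the pathway was read from 7 lists of 78 genes, all of which were tested. Of these 78 genes 0 passed an adjusted p of 0.05 by edgeR's quasi-likelihood test, while DESeq2's Wald test and edgeR's exact test each gave 4, namely Cd40, Tnfsf13b, Il1b and Ier3. These are 5.13% of the 78, beside 5.83% and 5.07% of all genes by the same tests. At an unadjusted p under 0.05, 8 were lower in ORP4L KI and 4 were higher, together 15.4% of the 78 beside 14.1% of all genes. Their median log2 fold change was -0.09. The groups did not overlap for 4 higher and 3 lower genes, 8.97% of the 78 beside 13.8% of all genes.

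Upstream of the dimers, 10 genes of the IKK complex and its kinases had a median of -0.15, and 1 passed the unadjusted threshold. This was Map3k14, which encodes NIK, the kinase that starts the processing of p100 in the noncanonical pathway. It had 106, 125 and 139 CPM in WT and 24.9, 69.3, 69.4 and 79.5 CPM in ORP4L KI libraries, all below WT. Its log2 fold change was -1.02 (SE 0.34, unadjusted p = 0.0142, edgeR adjusted p = 0.200). Tab3, an adaptor of the kinase TAK1, had a log2 fold change of 0.38 (SE 0.25, edgeR adjusted p = 0.575). Of 14 adaptors of the antigen and TNF receptors none passed. The smallest p values there were those of Bcl10, an adaptor of antigen receptor signalling (0.55, SE 0.25, edgeR adjusted p = 0.369), and Irak1, a kinase of Toll-like and interleukin-1 receptors (-0.25, SE 0.16, edgeR adjusted p = 0.564).

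Among 11 other brakes of the pathway, N4bp1 was higher and Tnip3 lower at an unadjusted p under 0.05. N4bp1, which restrains NF-κB signalling from receptors, had 68.0, 92.3 and 77.3 CPM in WT and 121, 110, 109 and 125 CPM in ORP4L KI libraries (log2 fold change 0.55, SE 0.18, edgeR adjusted p = 0.185). All 4 ORP4L KI libraries were above WT. Tnip3, a partner of A20, stood at 1.10 to 4.28 CPM, with a log2 fold change of -0.87 (SE 0.36, edgeR adjusted p = 0.308). The other nuclear IκB genes, Nfkbiz and Nfkbid, had log2 fold changes of 0.28 (SE 0.24) and -0.13 (SE 0.25), with edgeR adjusted p of 0.688 and 0.891.

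Of 13 receptors that feed the pathway 1 passed, Cd40, a TNF family receptor of B-cells, dendritic cells and macrophages. It had 22.5, 25.4 and 12.2 CPM in WT and 8.10, 5.59, 12.8 and 8.83 CPM in ORP4L KI libraries, a log2 fold change of -1.18 (SE 0.34, unadjusted p = 0.00598, edgeR adjusted p = 0.137). Of 7 ligands, Tnfsf13b, which encodes the B-cell factor BAFF, was higher with 5.47, 4.91 and 4.99 CPM in WT and 21.5, 7.89, 12.5 and 24.3 CPM in ORP4L KI libraries. Its log2 fold change was 1.69 (SE 0.39, unadjusted p = 0.00170, edgeR adjusted p = 0.0890). Il1b, the cytokine interleukin-1β, was lower with 723, 1789 and 1035 CPM in WT and 510, 226, 632 and 480 CPM in ORP4L KI libraries (log2 fold change -1.36, SE 0.39, edgeR adjusted p = 0.140). For Tnfsf13b and Il1b the groups did not overlap. These are also genes of myeloid and antigen-presenting cells, and in the same libraries the granulocyte markers were higher for 14 of 14 and the dendritic cell markers lower for 8 of 8. The methods describe a selection for naive CD4+ T-cells, yet transcripts of such cells were present in these libraries. The part of these markers in the values was not tested.

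Of 21 target genes of NF-κB, 2 were higher and 4 lower at an unadjusted p under 0.05. Together these are 28.6% of the 21, beside 14.1% of all genes (7.01% higher and 7.05% lower). The median log2 fold change was -0.20 over the list, beside 0.01 over all genes. Ier3, an early response gene tied to survival, had 33.4, 80.7 and 39.1 CPM in WT and 158, 98.4, 87.1 and 106 CPM in ORP4L KI libraries. All ORP4L KI libraries were above WT, and the log2 fold change was 1.14 (SE 0.34, unadjusted p = 0.00803, edgeR adjusted p = 0.156). The others, named after their values were seen, were Sod2 (0.64), the mitochondrial superoxide dismutase, on the higher side. On the lower side were Cd83 (-0.90), a marker of activated antigen-presenting cells, Il2ra (-0.73), the α chain of the interleukin-2 receptor, and the survival genes Bcl2a1a (-1.01) and Bcl2a1d (-0.55). Bcl2a1a and Bcl2a1d are near-identical copies, so the division of reads between them is uncertain. The copy Bcl2a1b, at 144 CPM in WT and 115 CPM in ORP4L KI on average, had a log2 fold change of -0.33 (SE 0.23, edgeR adjusted p = 0.605) and overlapping groups. In the same libraries the granulocyte markers were higher for 14 of 14. Their part in the values of the target genes and of Bcl10 was not tested. The κB consensus was matched in the promoters of 6 of the 18 target genes with an entry (33.3%), beside 5.14% of all genes with one. The 6 were Ier3, Sod2 and Il2ra, which passed the unadjusted threshold, and Bcl2l1, Cxcl10 and Irf1, which did not. Of the other genes that passed, Bcl2a1a and Bcl2a1d had no match and Cd83 had no entry.

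**Figure D4:**
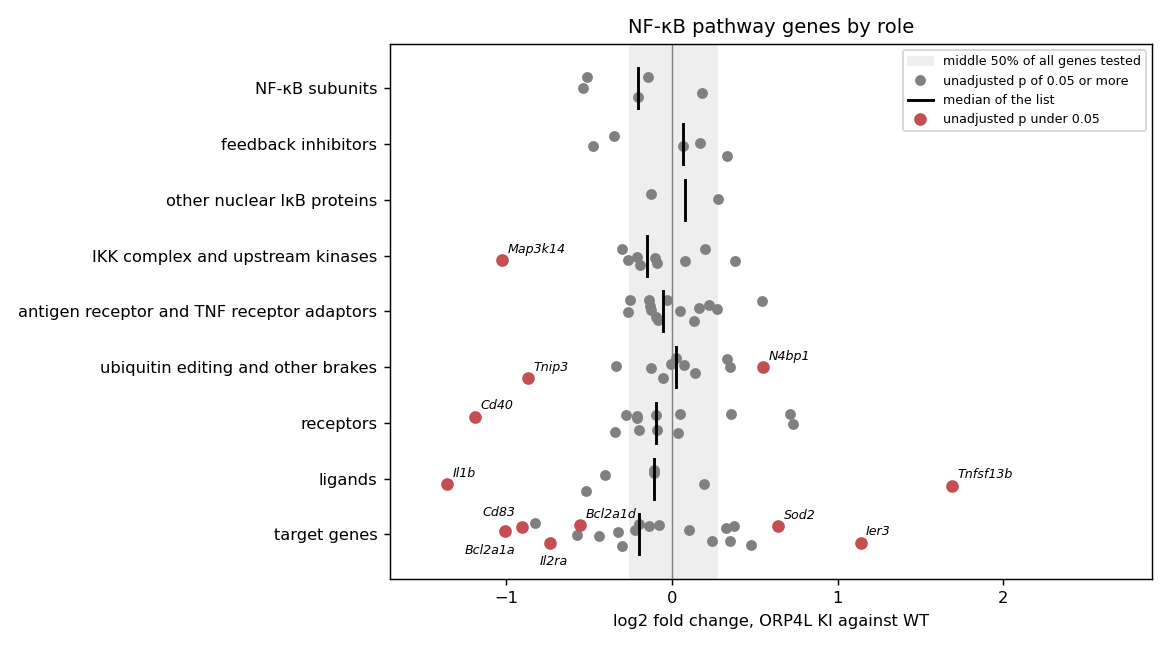
Log2 fold change of ORP4L KI against WT (x axis) for the genes of each list (rows; 1 point per gene), with the list median as a black bar and the middle 50% of all genes in grey. The 10 subunit and inhibitor genes in the upper rows hold no red point (unadjusted p under 0.05), and the red points of the other lists run from Il1b at -1.36 to Tnfsf13b at 1.69.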

How the data were processed

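T-cells of 4 ORP4L KI and 3 WT mice were sequenced, 1 library per mouse, and grouped by the genotype in the sample labels. After adapter trimming, the authors aligned the reads with FANSe3 against reference mRNAs of the mouse (mm10 per the labels), combined splice variants into 1 row per gene and deposited raw read counts. The RPKM deposited by the authors uses the length of the longest transcript of a gene and served for levels and ratios only. The reference version and the treatment of multi-mapping reads are not given in the sources used here, so counts of near-identical genes are uncertain.

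Counts were filtered with filterByExpr (minimum count 10, minimum total 15), TMM-scaled, and fitted in R 4.3.3 with the quasi-likelihood test of edgeR 4.0.16 on all 7 libraries without covariates, with Benjamini-Hochberg adjustment over the 13462 genes tested. The SE is the absolute log2 fold change over the root of F. CPM values are scaled by TMM. No pair of libraries of the same group agreed within sampling noise, and pairs across the groups were not compared. Alternatives were DESeq2 1.42.0 (Wald test and size factors), upper-quartile and total-count scaling, other filters, edgeR's exact test and legacy dispersion, a replicate block and each replicate left out. The tests were checked on simulated data. Python 3.11.15, pandas 2.3.3 and Matplotlib 3.10.9 were used for tables and plots, and promoter sequences and gene coordinates are those of RefSeq on GRCm38.p6.

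The 10 genes and the lists were chosen with earlier results of these data known. The genes named were the 10, Osbp2, the 3 genes most like the one of the 10 with the smallest p (1 of these is not reported here), and of each list the genes with an unadjusted p under 0.01 or otherwise the 2 with the smallest p. Cd3e, Cd4, Cd8a, Xist, Sod2, Cd83, Il2ra, Bcl2l1, Cxcl10, Irf1, Bcl2a1a, Bcl2a1b and Bcl2a1d fall outside this rule.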

Additional observations from a re-analysis of the deposited data

Results flagged for a closer look

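A library far from the others was looked for among the 4 ORP4L KI values of 25 quantities, and 1 was found, where chance gives 1.25. In ORP4L KI replicate 2, Tab3, the gene of an adaptor of the kinase TAK1, stood at 36.6 CPM, against 25.7 to 27.5 CPM in the other ORP4L KI libraries. In WT libraries it stood at 16.8, 20.2 and 30.2 CPM.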

How the results depend on the processing

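None of the 10 genes reached an adjusted p under 0.05 under any alternative run. Scaling by total counts alone put the median of all genes at a log2 fold change of -0.13, turned Nfkbib to -0.060, brought 1 of the 10 genes (Bcl3, -0.61, unadjusted p = 0.0351, edgeR adjusted p = 0.293) under an unadjusted p of 0.05, left 2 of them (Bcl3 and Nfkbie) with groups that did not overlap, and gave 2 higher genes in the other lists in place of 4. Leaving out single replicates gave log2 fold changes of -0.14 to 0.33 for Nfkbib and -0.30 to 0.010 for Nfkb2, 0 to 1 of the 10 genes at an unadjusted p under 0.05 and 0 to 2 with groups that did not overlap. By edgeR's unadjusted p, the genes below it were Rel without WT replicate 1 or ORP4L KI replicate 2, Bcl3 without WT replicate 3 and Relb without ORP4L KI replicate 4, at log2 fold changes of -0.73, -0.70, -0.67 and -0.76 and edgeR adjusted p of 0.266 to 0.449. In the other lists it gave 2 to 6 higher, 3 to 8 lower and 0 to 1 genes at an adjusted p under 0.05, where DESeq2's Wald test and edgeR's exact test gave 4 each. Same-numbered libraries did not deviate together (correlations of -0.535 to 0.15, beside -0.393 to 0.51 for the other pairs). With 3 such pairs these values cannot settle whether the numbers pair the mice. With the replicate block, which leaves out ORP4L KI replicate 4, Nfkbib was at -0.11, 1 of the 10 genes (Relb, -0.80) had an unadjusted p under 0.05, 2 did not overlap, 2 genes of the other lists were higher, and 51 genes of all had an adjusted p under 0.05 and 1163 an unadjusted p under 0.05. Over all genes, 28 had an adjusted p under 0.05. This number was 3 with the legacy dispersion, 89 with upper-quartile scaling, 169 with total counts, 107 with no filter at all, 784 by DESeq2's Wald test and 682 with edgeR's exact test. Asking for 10 counts in every library gave 0 by edgeR's quasi-likelihood test, where 1583 genes had an unadjusted p under 0.05. Single replicates left out gave 0 to 365, with 355 to 835 genes past the volcano lines and 1292 to 2258 at an unadjusted p under 0.05. The log2 difference of the inhibitor to subunit ratio was 0.34 to 0.51 without single replicates. The cause of these moves was not tested. With 3 and 4 mice, the 95% intervals of the 10 genes reached 0.47 to 0.90 log2 units to each side, and smaller differences could not be told from the spread between mice.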
